A study of Mus musculus with 9 samples.

Results

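Amino acid synthesis enzymes outside the serine pathway were followed at the mRNA level in mouse retinal ganglion cell (RGC) cultures. The 10 genes were read from the rows whose symbol was Asns, Gpt2, Cth, Cbs, Aldh18a1, Pycr1, Pcx, Ass1, Kyat1 or Kyat3, out of 22322 genes in the table. All 10 passed the low-count filter that kept 12145 genes for testing, and all their counts were whole numbers in all 9 libraries. The enzymes were selected on their CPM difference between aging and normal RGCs, which was already known, so the values of that contrast are given as a description without a test. The contrasts with the medium use libraries of 1 further group, but each shares a group with the contrast behind the choice.

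The 9 libraries were 3 groups of 3 wild-type (WT) cultures. Normal RGCs received no D-galactose, aging RGCs were treated with this sugar to bring on an aged state, and aging RGCs + USCs medium were treated with it and then kept in medium that human urine-derived stem cells (USCs) had conditioned. No library of normal RGCs kept in the conditioned medium was among the 9. The USCs were grown in a special medium of their own, and no group received such medium unconditioned. Effects of the base medium and of what the USCs released therefore cannot be told apart. The RGCs were bought, grown in high glucose medium with serum and passaged with trypsin, and the replicates were wells. The p-values therefore measure the spread between wells. Libraries held 18189616 to 22342288 expected counts, which estimate the reads of each gene. Levels are given as CPM, counts scaled to a common library size after TMM adjustment of the library totals, with the mean ± SD of 3 libraries. DEG here means a gene with a fold change of at least 2 whose adjusted p in edgeR's quasi-likelihood test was below 0.05. Each log2 fold change is followed by its standard error (SE) where it carries a result.

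The labelled cell type was compared with its markers. Of 16 retinal ganglion cell markers, Pou4f2, Pou4f3, Rbfox3 and Atoh7 were at 0 in every library, and 10 stayed under 1 CPM in every library, among them Thy1, Slc17a6 and Sncg. The summed level of these 16 markers ranged over 156 to 167 CPM (normal), 113 to 118 CPM (aging) and 85.4 to 96.6 CPM (medium). Summed levels of 12 macrophage markers were 66.8 to 76.2, 52.5 to 58.2 and 33.5 to 59.6 CPM in the same order, and C1qa, C1qb, C1qc and Tyrobp were under 1 CPM in every library. Cd68 made up most of that sum in every library but normal replicate 1, where it was 36.1 of 76.2 CPM. Without Cd68 the libraries stood at 40.2, 24.1 and 29.8 CPM (normal), 17.8, 10.6 and 11.6 CPM (aging) and 6.83, 4.91 and 24.8 CPM (medium). Of 10 macrophage markers tested, 7 were DEGs in aging against normal RGCs, all lower, beside 1.56% of all genes called lower. The median log2 fold change of the 10 was -1.54. By the adjusted p alone 7 were lower and 1 was higher, beside 23.0% and 23.6% of all genes. Some calls rest on few counts, such as C1qb with 21, 13 and 11 in normal libraries and 0 in each aging library. Such a marker passed the low-count filter mainly through the normal libraries and could then only be called lower. Nothing is therefore read from the number of macrophage markers called. Medium replicate 3 stood apart from the other medium libraries, with 32 counts of Adgre1 against 2 and 2, and 15 of C1qb against 0 and 0. Without that library the enzymes called in the contrasts of medium with aging and with normal RGCs still numbered 3 and 2, and log2 fold changes of medium against aging RGCs were 1.38 for Asns, 1.87 for Cth and 1.53 for Kyat3. The 8 fibroblast or mesenchymal markers summed to 434 to 515, 401 to 413 and 248 to 251 CPM, with Col1a2, Acta2, Dcn and Lum under 1 CPM throughout. The 8 epithelial markers summed to 1047 to 1141, 1077 to 1103 and 1236 to 1285 CPM, with Krt5 at 0 and Krt14, Cdh1 and Cldn4 under 1 CPM throughout. The 7 glial markers summed to 1759 to 1854, 2059 to 2130 and 2025 to 2165 CPM, but Gfap, Aqp4, Rlbp1, Slc1a3 and S100b were under 1 CPM in every library and the sum was that of Vim and Glul, and of the 10 photoreceptor markers 9 were under 1 CPM. The part of these shifts in the results was not tested. In these bulk cultures, fewer cells of a type and less RNA per cell cannot be told apart.

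Cells make the non-essential amino acids from intermediates of glycolysis and the citric acid cycle. Asparagine synthetase moves an amide group from glutamine to aspartate, alanine aminotransferase converts pyruvate and glutamate to alanine, and proline is made from glutamate through pyrroline-5-carboxylate. Cysteine is made from homocysteine and serine by transsulfuration. Many of these genes are known targets of ATF4, a transcription factor that is translated when amino acids are scarce or the endoplasmic reticulum is stressed. ATF4 binds together with C/EBP family proteins to an element with the core letters TGATGNAA.

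Promoter windows of 250 bases before and 50 after the start were read from RefSeq on GRCm38.p6, the build named mm10 in the submitters' processing notes. A window was found for 9 of the 10 enzymes, and Cth was not matched. The letters TGATGNAA, searched on both strands, were found in the windows of Asns and Pycr1. They were present in 2.75% of the 9640 genes tested that had a window, and in 3.97% of all 32851 windows. Among pathway neighbours that were tested, a list described later, 5 of 59 genes with a window held them, namely Chac1, Got1, Pck2, Me3 and Sqor. The 30 bases around the match are shown for Asns, Pycr1, Chac1, Got1 and Pck2, which differ in how far their mRNA moved. Those of Me3 and Sqor are not printed. Capitals mark the match, and the strand is that of the gene.
Asns, chr6:7693214-7693243, minus strand: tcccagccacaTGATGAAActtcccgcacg
Pycr1, chr11:120643833-120643862, minus strand: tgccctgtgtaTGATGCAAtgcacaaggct
Chac1, chr2:119351038-119351067, plus strand: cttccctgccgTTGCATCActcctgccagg
Got1, chr19:43524689-43524718, minus strand: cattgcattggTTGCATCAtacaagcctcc
Pck2, chr14:55540152-55540181, plus strand: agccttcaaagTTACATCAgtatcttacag
The match began 23 bases before the RefSeq start of Asns and 103 bases before that of Pycr1. In GENCODE the Asns gene begins 45 bases before its RefSeq start, so the match in Asns lies inside the gene as given there. In Chac1, Got1 and Pck2 it lay on the other strand, beginning 193, 102 and 103 bases before the start. A match describes letters and is not a measured binding site.

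To show a whole stretch with and without the letters, 200 bases are given for Pycr1, which holds a match, and for Pcx, which does not. Of the enzymes with a window but no match, Gpt2, Aldh18a1, Kyat1 and Kyat3 rose in the medium against aging RGCs, while Pcx, Cbs and Ass1 fell. Bases outside the windows were not searched, and a relation between the letters and the changes was not tested. The stretches end at the last base before the GENCODE gene, which for Pycr1 is 21 bases short of the RefSeq start used above, so that its match begins 82 bases before the end of the stretch.
Pycr1, chr11:120643770-120643969, minus strand: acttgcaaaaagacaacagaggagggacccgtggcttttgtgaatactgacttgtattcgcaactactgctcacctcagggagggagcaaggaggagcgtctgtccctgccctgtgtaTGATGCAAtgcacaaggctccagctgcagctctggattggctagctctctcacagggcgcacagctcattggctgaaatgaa
Pcx, chr19:4510272-4510471, plus strand: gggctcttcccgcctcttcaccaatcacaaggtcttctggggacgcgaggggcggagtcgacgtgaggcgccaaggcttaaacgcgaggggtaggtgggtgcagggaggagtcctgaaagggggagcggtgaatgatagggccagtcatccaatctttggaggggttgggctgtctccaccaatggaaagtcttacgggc
Pcx has a further RefSeq start, and its window held no match either.

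The 10 enzymes did not follow a common course. In aging RGCs, 9 were lower than in normal RGCs and Ass1 was higher. In aging RGCs + USCs medium, Asns, Cth and Kyat3 stood within 10% of their normal mean. Gpt2, Aldh18a1 and Pycr1 rose only part of the way, while Pcx and Cbs fell further below the level of aging RGCs, and Ass1 fell toward its normal level.

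**Figure D1:**
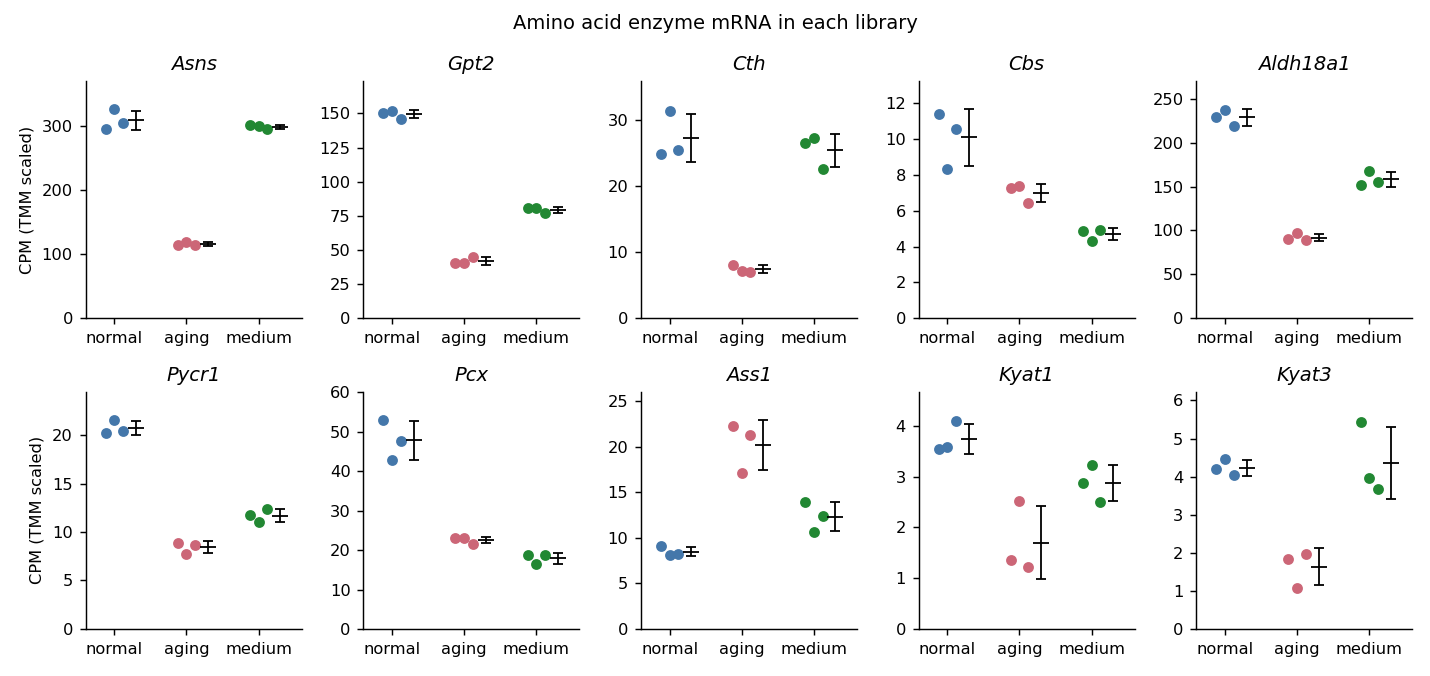
CPM (counts scaled to a common library size, with TMM factors) of the 10 enzymes on a linear axis from 0, with 1 point per library and the mean ± SD of 3 libraries beside the points. Asns lay between 114 and 119 CPM in aging RGCs and between 296 and 302 CPM in the medium, whereas Pcx was lower in the medium than in aging RGCs.

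Asparagine is made by asparagine synthetase, encoded by Asns (ENSMUSG00000029752) on chromosome 6 from 7675169 to 7693254. Its level was 296, 326 and 304 CPM in the normal libraries, 114, 119 and 114 CPM in the aging libraries, and 302, 299 and 296 CPM in the medium. The aging libraries lay apart from all others, and the medium libraries fell inside the normal range or within 1 CPM of it. The mean in aging RGCs was 37.4% of normal, a log2 fold change of -1.42 (SE 0.038), and in the medium it was 96.9% of normal. Between the medium and aging RGCs Asns rose by a log2 fold change of 1.37 (SE 0.0381, edgeR adjusted p = 2.93e-21). Medium against normal RGCs gave -0.05 with a 95% interval of -0.13 to 0.04, and this difference did not pass the edgeR test (adjusted p = 0.278). That comparison depended on the scaling, since Asns was lower than normal with library totals alone (-0.15, edgeR adjusted p = 0.000793), with upper-quartile factors (-0.08, edgeR adjusted p = 0.049) and with limma on log2(FPKM + 1) (-0.15, adjusted p = 0.0062).

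Alanine is made in mitochondria by alanine aminotransferase 2, the product of Gpt2 (ENSMUSG00000031700) on chromosome 8 from 85492576 to 85527560. The normal libraries held 150.1, 152 and 146 CPM, the aging libraries 40.2, 40.6 and 45.1 CPM, and the medium libraries 80.4, 80.6 and 76.7 CPM. The 3 groups were far apart, and the medium libraries sat between the others. Gpt2 stood at 28.1% of normal in aging RGCs (log2 fold change -1.83, SE 0.0471) and at 53.1% in the medium. Its rise in the medium was 0.92 on the log2 scale (SE 0.0494, edgeR adjusted p = 5.70e-15), short of the 2-fold threshold for a DEG. The shortfall against normal RGCs was a log2 fold change of -0.91 (SE 0.0436, edgeR adjusted p = 2.28e-16). Gpt, which encodes the cytosolic alanine aminotransferase, was near the limit of detection with 13 to 44 counts per library. Medium against normal RGCs gave the lowest adjusted p for Gpt, 0.0599 by edgeR, which ranged from 0.0322 without TMM factors to 0.192 without normal replicate 3.

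Within a library, the count ratio of Asns to Gpt2 is free of scaling between libraries, and only its change can be read because lengths differ. The ratio was 1.97, 2.15 and 2.08 in normal RGCs, 2.83, 2.92 and 2.53 in aging RGCs, and 3.76, 3.72 and 3.85 in the medium. The groups did not overlap, and exact permutation tests (two-sided) gave p = 0.1 for medium against aging and for medium against normal, the smallest value that 3 against 3 libraries allow.

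**Figure D2:**
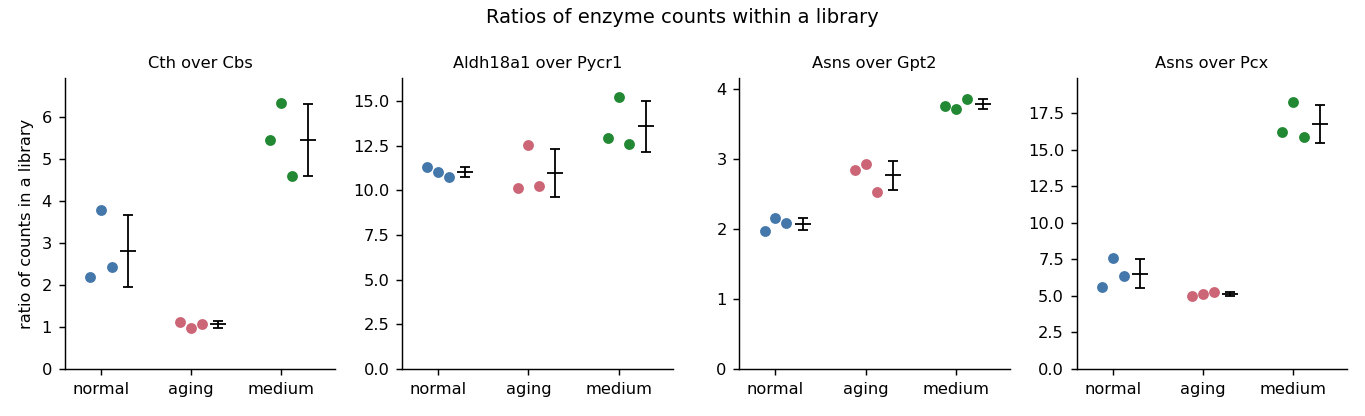
Ratios of counts of pairs of enzymes within a library, on linear axes from 0, with 1 point per library and the mean ± SD of 3 libraries. Cth over Cbs was 0.972 to 1.12 in aging RGCs and 4.59 to 6.31 in the medium, and Aldh18a1 over Pycr1 overlapped between normal and aging RGCs.

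Proline synthesis begins with the bifunctional enzyme of Aldh18a1 (ENSMUSG00000025007), on chromosome 19 from 40550257 to 40588463, which turns glutamate into pyrroline-5-carboxylate. Levels were 229, 238 and 219 CPM in normal RGCs, 89.8, 96.9 and 88.9 CPM in aging RGCs, and 152, 168 and 155 CPM in the medium. No library of any group reached the range of another. Relative to normal, the aging mean was 40.2% (log2 fold change -1.32, SE 0.0439) and the medium mean 69.2%. Aldh18a1 rose in the medium by 0.78 on the log2 scale (SE 0.0447, edgeR adjusted p = 2.03e-14) and stayed below normal RGCs by a log2 fold change of -0.53 (edgeR adjusted p = 9.88e-12).

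The last step is carried out by pyrroline-5-carboxylate reductases, and the mitochondrial Pycr1 (ENSMUSG00000025140) lies on chromosome 11 from 120635712 to 120643769. Pycr1 had 20.3, 21.6 and 20.4 CPM in normal RGCs, 8.87, 7.73 and 8.66 CPM in aging RGCs, and 11.7, 11.02 and 12.3 CPM in the medium. The medium libraries were above every aging library but far closer to them than to the normal libraries. In the medium Pycr1 stood at 56.3% of normal, against 40.6% in aging RGCs, where its log2 fold change was -1.30 (SE 0.0931). It rose in the medium by 0.47 (SE 0.1, edgeR adjusted p = 0.000228) and remained under normal RGCs by -0.83 (edgeR adjusted p = 4.25e-09). The count ratio of Aldh18a1 to Pycr1 spanned 10.7 to 11.3 across normal, 10.1 to 12.5 across aging and 12.6 to 15.2 across medium libraries.

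Pycrl, which encodes the cytosolic reductase, was at 46.9 ± 2.16 CPM in normal RGCs, 53.6 ± 1.74 CPM in aging RGCs and 61.4 ± 5.47 CPM in the medium (n = 3 each). Unlike Pycr1 it was higher in aging than in normal RGCs, by a log2 difference of 0.19 (edgeR adjusted p = 0.00885). In the medium it rose over aging RGCs by 0.20 (edgeR adjusted p = 0.00529).

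Transsulfuration uses cystathionine beta-synthase, encoded by Cbs (ENSMUSG00000024039) on chromosome 17 from 31608894 to 31637238, and then cystathionine gamma-lyase, encoded by Cth (ENSMUSG00000028179) on chromosome 3 from 157894248 to 157925077. Cth was measured at 25.0, 31.4 and 25.5 CPM in normal RGCs, 8.11, 7.16 and 6.94 CPM in aging RGCs, and 26.6, 27.2 and 22.6 CPM in the medium. Normal and medium libraries overlapped, and the aging libraries lay well below both. At 27.1% of normal, Cth had the lowest relative level of the 10 enzymes in aging RGCs (log2 fold change -1.88, SE 0.104). Gpt2 was close at 28.1%, and without normal replicate 2 the order turned, with -1.82 for Gpt2 and -1.77 for Cth. Cth rose in the medium by 1.78 on the log2 scale (SE 0.106, edgeR adjusted p = 4.38e-14), to 93.3% of normal. The remaining difference of -0.10 had a 95% interval of -0.31 to 0.11 and did not pass the edgeR test (adjusted p = 0.337), although it did with library totals alone (-0.20, adjusted p = 0.0492 by edgeR without TMM factors).

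Cbs took another direction. Its level was 11.4, 8.34 and 10.6 CPM in normal RGCs, 7.25, 7.37 and 6.43 CPM in aging RGCs, and 4.88, 4.32 and 4.92 CPM in the medium. The libraries stepped down from group to group without overlap, though normal replicate 2 was close to the aging libraries. The log2 fold change of aging against normal RGCs was -0.53 (SE 0.131). In the medium Cbs fell by a further 0.58 on the log2 scale (SE 0.146, edgeR adjusted p = 0.00147) and was a DEG against normal RGCs (log2 fold change -1.10, edgeR adjusted p = 7.50e-08). The count ratio of Cth to Cbs was 2.19, 3.77 and 2.42 in normal RGCs, 1.12, 0.972 and 1.08 in aging RGCs, and 5.44, 6.31 and 4.59 in the medium. Medium and normal ratios did not overlap, with p = 0.1 by the exact permutation test, again the smallest value possible.

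The deposited FPKM values, which divide by transcript length, did not follow the counts of Cbs. FPKM was 5.76, 5.74 and 7.43 in normal RGCs, 6.56, 2.82 and 4.74 in aging RGCs, and 2.00, 1.64 and 2.82 in the medium. Aging replicate 1 thus lay inside the normal range in FPKM but below it in CPM. The length implied by count and FPKM ran from 1123 to 2643 bases for Cbs over the 9 libraries, a 2.35-fold range, against 1814 to 1816 bases for Cth. On the log2(FPKM + 0.1) scale, the difference between aging and normal RGCs was -0.48, and that between the medium and aging RGCs was -1.05 (adjusted p = 0.00842 by limma).

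**Figure D3:**
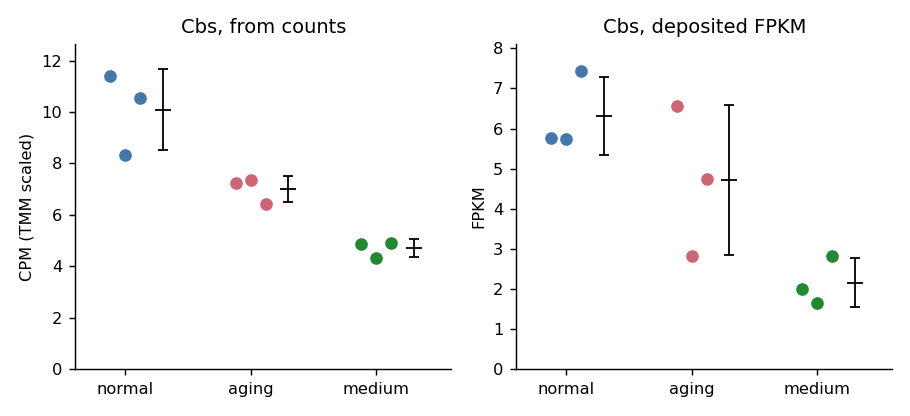
Cbs in each library as CPM from the counts (left) and as deposited FPKM (right), on linear axes from 0, with the mean ± SD of 3 libraries. In CPM the aging libraries lie between 6.43 and 7.37, and in FPKM they spread from 2.82 to 6.56 and overlap the normal libraries.

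Oxaloacetate, the carbon skeleton of aspartate and asparagine, is made from pyruvate by pyruvate carboxylase, the product of Pcx (ENSMUSG00000024892) on chromosome 19 from 4510472 to 4621752. Pcx was at 52.9, 42.9 and 47.7 CPM in normal RGCs, 23.0, 23.0 and 21.6 CPM in aging RGCs, and 18.7, 16.4 and 18.6 CPM in the medium. Every medium library was below every aging library, which in turn were below every normal library. The aging mean was 47.1% of normal (log2 fold change -1.09, SE 0.074) and the medium mean 37.4%. From aging RGCs to the medium, Pcx fell by 0.33 on the log2 scale (SE 0.0831, edgeR adjusted p = 0.00127). It was a DEG between medium and normal RGCs (log2 fold change -1.42, SE 0.0761, edgeR adjusted p = 3.10e-15). Asns counts were 5.60 to 7.60 times those of Pcx across normal libraries, 4.96 to 5.27 times across aging libraries and 15.9 to 18.3 times across medium libraries.

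Argininosuccinate synthase joins citrulline and aspartate on the way to arginine, and its gene Ass1 (ENSMUSG00000076441) lies on chromosome 2 from 31470207 to 31520672. Ass1 had 9.05, 8.09 and 8.24 CPM in normal RGCs, 22.2, 17.1 and 21.2 CPM in aging RGCs, and 13.9, 10.7 and 12.4 CPM in the medium. Every aging library was above every medium library, and these were above every normal library. In aging RGCs it stood at 238% of normal (log2 fold change 1.25, SE 0.11) and in the medium at 145%. Against aging RGCs it fell by 0.71 in the medium (SE 0.106, edgeR adjusted p = 1.86e-06), and against normal RGCs it stayed higher by 0.54 (edgeR adjusted p = 0.000228).

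Kyat1 and Kyat3 encode aminotransferases that act on kynurenine and on glutamine, and they also cleave cysteine conjugates. Both were scarce, with 24 to 83 counts per library for Kyat1 (ENSMUSG00000039648, chromosome 2 from 30185124 to 30205847) and 21 to 106 for Kyat3 (ENSMUSG00000040213, chromosome 3 from 142701051 to 142746870). Exons of Kyat3 overlap Gm15540 on the other strand, and strandedness of the counts is not given in the sources used here. Kyat1 was measured at 3.55, 3.59 and 4.10 CPM in normal RGCs, 1.35, 2.52 and 1.22 CPM in aging RGCs, and 2.88, 3.23 and 2.51 CPM in the medium. Aging replicate 2 stood apart from its group and overlapped the medium. The log2 fold change of Kyat1 for aging against normal RGCs was -1.14 (SE 0.24). Its rise of 0.76 in the medium passed the edgeR test (SE 0.25, adjusted p = 0.0124), but not without aging replicate 1 (adjusted p = 0.0602), aging replicate 3 (adjusted p = 0.0846) or medium replicate 2 (adjusted p = 0.0557, all by edgeR). Without aging replicate 2 the rise was 1.16. Medium against normal RGCs gave -0.38 with a 95% interval of -0.92 to 0.16, which did not pass the test (edgeR adjusted p = 0.14).

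Kyat3 was at 4.20, 4.46 and 4.05 CPM in normal RGCs, 1.84, 1.08 and 1.97 CPM in aging RGCs, and 5.45, 3.97 and 3.69 CPM in the medium. Normal and medium libraries overlapped and the aging libraries lay below them, at 38.5% of the normal mean (log2 fold change -1.37, SE 0.223). In the medium Kyat3 rose by 1.42 (SE 0.224, edgeR adjusted p = 5.23e-06). Its difference from normal RGCs was 0.04 with a wide 95% interval of -0.43 to 0.51, which turned to -0.14 without medium replicate 1, and neither value passed the edgeR test (adjusted p = 0.859 and 0.588).

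**Figure D4:**
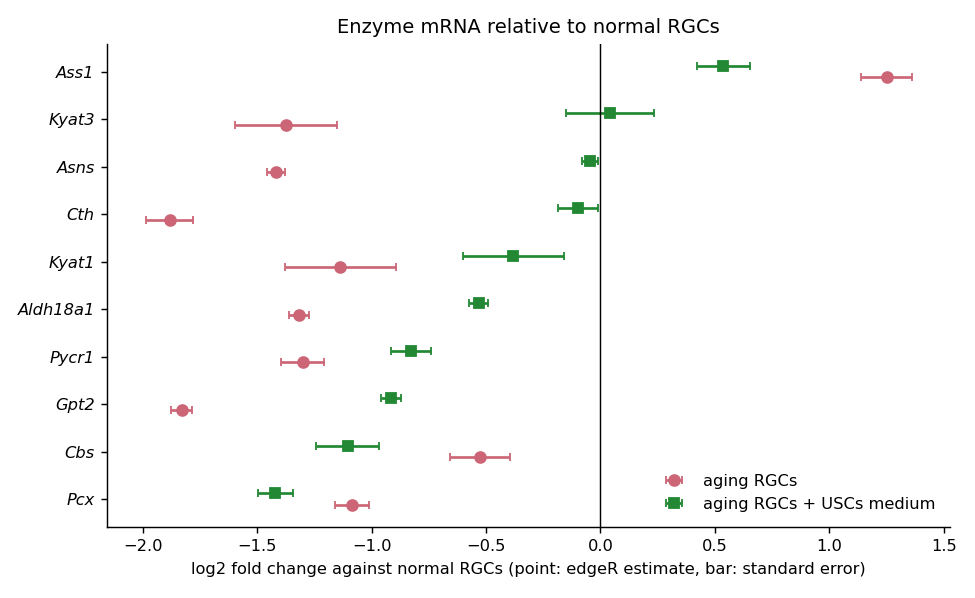
Log2 fold change against normal RGCs of the 10 enzymes in aging RGCs (circles) and in the medium (squares), with bars of 1 standard error from edgeR. The values for aging RGCs run from -1.88 (Cth) to 1.25 (Ass1), and the squares of Pcx and Cbs lie to the left of their circles.

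Counted over the list, 9 of the 10 enzymes were DEGs in aging against normal RGCs, beside 2.65% of all genes tested, with 8 lower (1.56% of all genes) and 1 higher (1.09%). Values of all 10 did not overlap between these groups, as for 53.0% of all genes. The list was chosen by these values, so nothing is read from either count. Their median log2 fold change was -1.31, beside 0.00 over all genes tested. Between the medium and aging RGCs, Cth, Kyat3 and Asns were DEGs, all 3 higher, beside 1.24% of all genes called higher and 4.21% called lower. By the adjusted p alone 7 enzymes rose and 3 fell, beside 53.1% of all genes that passed in either direction, and the median log2 fold change was 0.77, beside -0.01 over all genes. Values of 9 enzymes did not overlap between these groups, as for 59.8% of all genes tested. In medium against normal RGCs, Pcx and Cbs were DEGs, both lower, beside 6.72% of all genes, 5.24% lower and 1.47% higher. By the adjusted p alone 5 enzymes were lower and Ass1 was higher, beside 60.5% of all genes, 29.9% lower and 30.6% higher. Values of 7 enzymes did not overlap, as for 63.8% of all genes tested. The share of enzymes called without the fold threshold was thus near the background in that contrast. The contrasts share libraries, so their values stand side by side and were not correlated. Each contrast with the medium also shares a group with the one that chose the list, so its counts are a description.

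Levels of different enzymes were compared in FPKM, which is per length. In normal RGCs Asns came first with 159 ± 7.92 FPKM, followed by Aldh18a1 (71.1 ± 4), Gpt2 (42.3 ± 1.02), Cth (15.5 ± 2.04), Pycr1 (13.0 ± 0.501), Pcx (12.2 ± 1.3), Cbs (6.31 ± 0.97), Ass1 (5.13 ± 0.336), Kyat3 (2.49 ± 0.536) and Kyat1 (2.01 ± 0.147). Libraries of Pycr1 and Pcx overlapped, as did those of Kyat3 and Kyat1. In aging RGCs Ass1 stood at 12.1 ± 1.64 FPKM, overlapping Gpt2 at 11.7 ± 0.71, and only Asns (58.5 ± 1.38) and Aldh18a1 (27.1 ± 1.73) were above them among the 10. In the medium Cth was at 13.5 ± 1.27 FPKM, while Pcx was at 4.23 ± 0.318 FPKM.

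Enzymes next to these 10 in their pathways were taken as 6 lists, of which 94 genes were in the table and 76 were tested. These lists were chosen with earlier results of these data known, so their counts are a description. In aging against normal RGCs 2 of the 76 were DEGs, both lower, beside 2.65% of all genes tested, and by the adjusted p alone 20 rose and 22 fell, beside 46.5% of all genes tested. Chac1, which breaks down glutathione, fell from 48.7 ± 1.7 to 9.99 ± 2.28 CPM. Pck2, the mitochondrial phosphoenolpyruvate carboxykinase, fell from 170 ± 6.15 to 61.1 ± 1.83 CPM, although some of its counts were fractional and its exons overlap Gm10876 on the other strand. Their log2 fold changes were -2.28 and -1.47 (adjusted p = 4.07e-17 and 3.69e-20 by edgeR). The median over the 76 neighbours was -0.01, beside 0.00 for all genes.

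In the medium against aging RGCs, 3 neighbours were DEGs upward and 1 downward, beside 1.24% and 4.21% of all genes, and by the adjusted p alone 41 rose and 10 fell, beside 27.1% of all genes higher and 26.0% lower. Suox, the sulfite oxidase that closes the breakdown of cysteine, reached 7.11 ± 0.394 CPM from 2.77 ± 0.14 CPM (log2 difference 1.35, edgeR adjusted p = 4.68e-08). Chac1 rose to 22.4 ± 2.53 CPM and Pck2 to 132 ± 8.08 CPM, log2 fold changes of 1.17 and 1.11. Arg1, which splits arginine into ornithine and urea, dropped to 3.67 ± 0.241 CPM from 14.5 ± 0.808 CPM, a log2 difference of -1.98 (SE 0.119, edgeR adjusted p = 5.50e-14). In normal RGCs Arg1 was at 15.5 ± 1.14 CPM, and it did not differ from aging RGCs by the edgeR test (adjusted p = 0.419). Against normal RGCs, Arg1, Suox and Chac1 were the DEGs among the neighbours, beside 6.72% of all genes, with log2 fold changes of -2.08, 1.14 and -1.12.

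By list, counts for the medium against aging RGCs by the adjusted p of edgeR stand beside 27.1% of all genes higher and 26.0% lower. The 23 neighbours in glutamine, glutamate and anaplerosis had 17 rises and 0 falls, and 0 falls also at an unadjusted p and with DESeq2. This list had 6 rises and 6 falls in aging against normal RGCs, and 17 rises and 1 fall in medium against normal RGCs. For the medium against aging RGCs again, of 10 tested in asparagine, aspartate and alanine, 7 rose and 1 fell. Of 10 in proline 4 rose and 2 fell, and of 19 in methionine, cysteine and glutathione 9 rose and 2 fell. In arginine and urea cycle 1 of 8 rose and 5 fell, and in kynurenine and branched-chain transamination 3 of 6 rose and 0 fell by either tool, with 1 fall at an unadjusted p of edgeR. Got1, the cytosolic aspartate aminotransferase, fell from 138 ± 5.49 to 98.8 ± 3.77 CPM in aging RGCs and was at 139 ± 2.56 CPM in the medium. Its log2 fold changes were -0.49 for aging against normal (edgeR adjusted p = 1.16e-10) and 0.49 for medium against aging (edgeR adjusted p = 7.68e-11). The mitochondrial Got2, which overlaps Gm45760 on the other strand, was at 288 ± 9.67, 303 ± 5.42 and 348 ± 4.97 CPM, and aging against normal RGCs did not pass the edgeR test (adjusted p = 0.0769). Asl, the enzyme after Ass1, was at 23.5 ± 2.17, 18.6 ± 1.43 and 21.4 ± 0.318 CPM. Unlike Ass1 it fell in aging RGCs (log2 fold change -0.34, edgeR adjusted p = 0.0009).

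**Figure D5:**
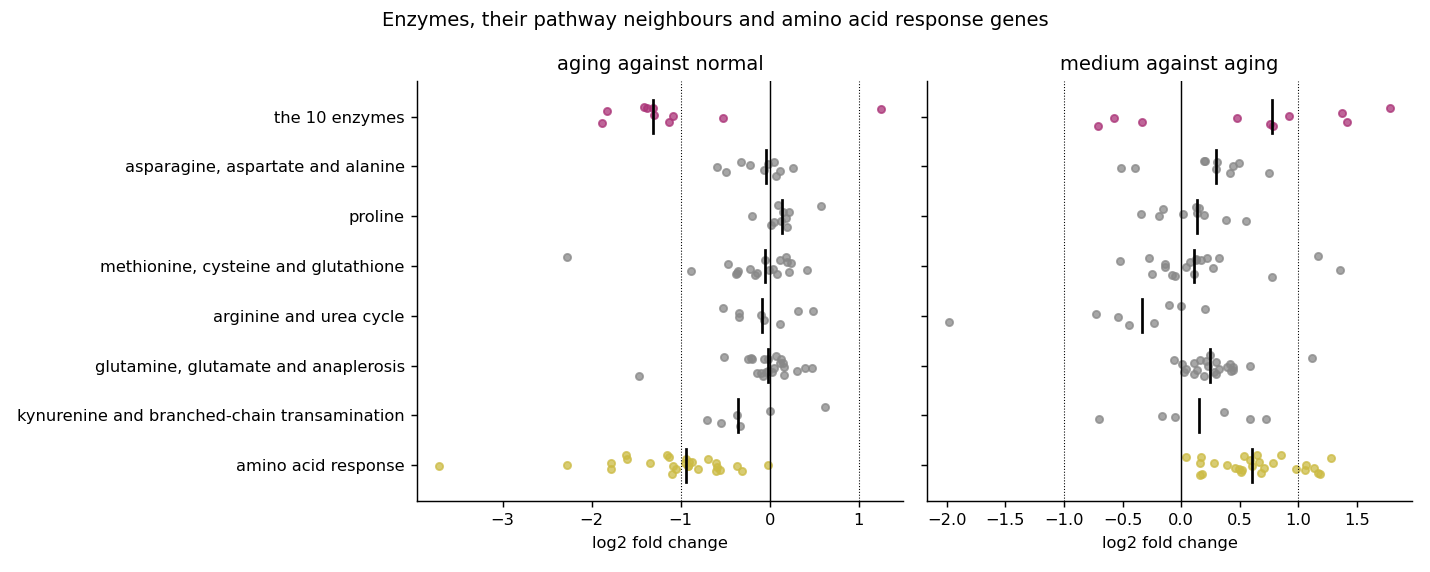
Log2 fold changes of the 10 enzymes, of 6 lists of pathway neighbours and of amino acid response genes, for aging against normal RGCs (left) and medium against aging RGCs (right). Each point is 1 tested gene, the black bar is the median of the list, and the dotted lines mark a log2 fold change of 1 in either direction. Medians of the neighbour lists lie between -0.35 and 0.30, and that of the amino acid response genes at -0.94 (left) and 0.60 (right).

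The 27 amino acid response genes, targets or regulators of ATF4 that share Chac1 with the neighbours, were all tested. Of these, 12 were DEGs in aging against normal RGCs, all lower, and 6 in the medium against aging RGCs, all higher, by edgeR and by DESeq2, beside 1.56% of all genes called lower and 1.24% called higher in these contrasts. In medium against normal RGCs 3 were DEGs, all lower, beside 5.24% of all genes, and the median log2 fold change was -0.37. By the adjusted p of edgeR alone 22 were lower and 3 higher there, beside 29.9% and 30.6% of all genes. Atf4 itself was at 643 ± 28.8 CPM in normal RGCs, 334 ± 5.12 CPM in aging RGCs and 545 ± 23.1 CPM in the medium. Its log2 fold changes were -0.94 for aging against normal RGCs (edgeR adjusted p = 2.31e-18) and 0.71 for medium against aging RGCs (edgeR adjusted p = 1.37e-15). Trib3, a pseudokinase induced by ATF4, was at 126 ± 8.37, 36.6 ± 1.74 and 80.3 ± 5.8 CPM. Ddit3, which encodes CHOP, was at 30.1 ± 2.58, 9.81 ± 1.37 and 15.4 ± 1.27 CPM, but the table holds a further row of this symbol that overlaps it. TGATGNAA was found in the promoter windows of 9 of the 26 of these genes that had one, or 34.6%, beside 2.75% of all genes tested with a window. The list was drawn up around ATF4, whose element holds these letters, so nothing is read from this share. It was also chosen with earlier results of these data known, so its counts of DEGs are a description.

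Genes with the most similar course were sought for Asns, Cth, Pcx and Ass1 among 10861 genes with a mean log2 CPM of at least 1. Similarity was the Euclidean distance between log2 CPM profiles over the 9 libraries, centred on the normal mean. Nearest to Asns were Psph (distance 0.197), an enzyme of serine synthesis whose counts were partly fractional and whose exons overlap Cct6a on the other strand, Rhob (0.374) and Spata24 (0.465). Cth was nearest to Aldh1l2 (0.781), a mitochondrial folate enzyme, Pck2 (0.894) and the cystine transporter gene Slc7a11 (0.927), and among the 10 enzymes to Asns (0.842). For Pcx, Nyap1 (0.305), Pitpnc1 (0.31) and Syngr1 (0.422) were nearest, and the nearest of the other enzymes was Pycr1 at 1.14. Ass1 was nearest to Ccng1 (0.629), a p53 target, Zfp469 (0.644) and Ifi207 (0.679). Its distance to the nearest of the other enzymes, Cbs, was 4.14.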

How the data were processed

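RNA-sequencing values of 9 libraries were analysed, 3 per group, grouped by their labels. The authors deposited, for each gene and library, an expected count without normalization, and FPKM, which is relative to transcript length and to the reads of the library. Libraries came from oligo(dT)-selected mRNA. The build is mm10 per the labels, while for the aligner, counting program and strandedness nothing is stated in the sources read. Of 22322 genes, 22267 were matched by identifier in GENCODE M21 (GRCm38), the source of gene coordinates. Promoters are from RefSeq (GRCm38.p6).

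Expected counts were rounded, and edgeR 4.0.16 in R 4.3.3 was used with filterByExpr, TMM factors and 1 mean per group over all 9 libraries, with 6 residual degrees of freedom. The quasi-likelihood F test was applied to each contrast, with Benjamini-Hochberg adjustment over 12145 genes, and intervals are 95% t intervals with those degrees of freedom. A symbol on several rows was read from the row with the most counts. Alternatives were DESeq2 1.42.0, limma 3.58.1 on log2(FPKM + 1) and log2(FPKM + 0.1), other scalings and filters, other call thresholds, the replicate block and each library left out.

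The 10 enzymes and all lists were chosen with earlier results of these data known. Named genes were the 10 enzymes, neighbours that were DEGs (at most 8 per contrast), paralogs, and the 3 genes nearest to each of 4 enzymes. Deviations of same-numbered libraries of different groups had correlations from -0.0368 to 0.0479, and the cultures were treated as unpaired. The result of 1 paralog is not reported here. Depth limits Kyat1, Kyat3 and Gpt most. Flow cytometry, viability and staining are not analysed here.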

Additional observations from a re-analysis of the deposited data

How the results depend on the processing

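The number of enzymes that were DEGs depended mainly on the fold threshold. For medium against aging RGCs it was 3, with 7 at 1.5-fold and 10 without a threshold. For medium against normal RGCs it was 2, with 4 at 1.5-fold, 6 without a threshold and 4 with limma on log2(FPKM + 0.1). The neighbours numbered 2 for aging against normal RGCs (5 at 1.5-fold, 42 without a threshold), 4 for medium against aging RGCs (9 and 51, and 1 with limma on log2(FPKM + 1)), and 3 for medium against normal RGCs (10 and 54). With each library left out in turn, the enzymes called were 8 to 9 for aging against normal, 3 to 4 for medium against aging and 2 in each case for medium against normal RGCs. For the neighbours the counts were 2, 4, and 3 to 5 in the same order, with 5 reached without normal replicate 3. Limma on log2(FPKM + 0.1) called 4 enzymes between the medium and aging RGCs, 3 higher and Cbs lower. Cbs was lower by the counts too, but short of 2-fold.

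With the replicate number as a block the counts of enzymes were 9, 3 and 2, and those of neighbours 2, 4 and 3, as without it. In 18 comparisons of a library with another group, 5 correlated best with their own number.

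Among the named genes, the directions that turned were these, and the main values were not DEGs. For medium against normal RGCs, Got1 (main value 0.00) was -0.098 without TMM factors, -0.0338 with upper-quartile factors, -0.00441 with the 1 CPM filter, -0.0973 and -0.0986 with limma on FPKM, and -0.0284 to 0.0284 with a library left out. Kyat3 was -0.0572 without TMM factors, -0.00337 and -0.00286 with limma, and -0.145 to 0.151 with a library left out. Cth was -0.162 to 0.0137 with a library left out. Gpt was -0.761 to 0.00123 for aging against normal and -0.714 to 0.0502 for medium against aging RGCs with a library left out. The cause was not tested. Omitting TMM factors shifted the median of all genes by -0.10 for medium against normal RGCs. Kyat1 and Pcx fell short of the 2-fold line for aging against normal RGCs with limma on log2(FPKM + 1), as did Kyat3 (also for medium against aging RGCs), and Kyat1 also without aging replicate 3. Gpt2 passed that line against normal RGCs without TMM factors.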
